A study of Mus musculus with 2 samples.

Results

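Gastric mucosal mast cells were described among live CD45+ cells sorted from the gastric mucosa of TxA23 mice. The cells were chosen by their UMI counts (unique molecular identifiers, 1 per captured RNA molecule). A mast cell had at least 200 detected genes, at most 10% mitochondrial UMIs, at least 1 UMI of Cpa3, at least 3 UMIs of Cpa3, Mcpt1, Mcpt2 and Cma1 together, and no UMI of Cd79a or Cd3e. This found 93 mast cells among 32372 cells. They were 7 of 20579 cells of the library from IL-27-treated mice and 86 of 11793 cells of the PBS library. These 6 genes chose the cells, so their levels are a description and no result rests on them.

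Mast cells are tissue-resident granulocytes that arise from Kit-dependent progenitors. They store proteases, biogenic amines and heparin-like proteoglycans in granules and release them when antigen links IgE held on the high-affinity receptor. They also respond to IL-33 through ST2. In mice the mucosal type of the gut lining is known for the chymases Mcpt1 and Mcpt2, and the connective tissue type for Mcpt4, Cma1 (also called Mcpt5), Mcpt6 (Tpsb2), Mcpt7 (Tpsab1) and Cpa3.

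TxA23 mice carry a transgenic T cell receptor against a parietal cell antigen and develop autoimmune gastritis. The mice were 3 months old when an osmotic pump was placed under the skin, and the stomach was taken 4 weeks later. In the IL-27 group the pump held 800 ng of recombinant single-chain IL-27 at 4 ug per mL, and the library pooled 3 females. In the PBS group the pump held PBS alone, and the library pooled 1 male and 1 female. Both groups therefore carried the transgene and a pump. Cells that excluded propidium iodide and stained for CD45 were sorted, a sort meant to leave out epithelium, stroma and dead cells. With 1 library per group no test across mice exists, and every interval below covers counting error only.

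Over all barcodes there were 80121995 UMIs with IL-27 and 43501501 with PBS. The number at the end of each barcode marks its 10x well, 3 for IL-27 and 2 for PBS, and no label ties a well to a mouse. UMIs of the Y-linked genes Ddx3y, Uty, Kdm5d and Eif2s3y appeared in 1 well, PBS well 2, with 3050 UMIs outside the mast cells and 571 Xist UMIs beside them. The other 4 wells held 0 Y-linked UMIs. The libraries shared 355 barcode sequences, and 2 mast cells carried one of these. Scrublet, a doublet caller, marked between 1.58% and 4.17% of cells in 4 wells and 0.0183% in PBS well 2, where it was treated as not having worked. It marked 1 of the 8 mast cells of those 4 wells.

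Mast cells were concentrated in a single well. PBS well 2 supplied 85 of the 93 cells, 91.4% of them, and there they made up 1.56% of 5451 cells (exact binomial 95% interval 1.25% to 1.92%). In PBS well 1, which had the same treatment, 1 of 6342 cells was a mast cell, or 0.0158% (0.000399% to 0.0878%). The IL-27 wells held 1 of 7549, 2 of 6014 and 4 of 7016 cells, or 0.0132% (0.000335% to 0.0738%), 0.0333% (0.00403% to 0.1201%) and 0.0570% (0.0155% to 0.146%). PBS well 1 thus lay inside the span of the 3 IL-27 wells, and PBS well 2 lay above every other well with no overlap of intervals. Over whole libraries the shares were 0.0340% (0.0137% to 0.0701%) in IL-27 and 0.729% (0.584% to 0.8998%) in PBS, a difference that rests on PBS well 2. Without that well the PBS share was 0.0158%. In PBS well 2, 19 mast cells had a Y-linked UMI and no Xist, 1 had Xist and no Y-linked UMI, and 65 had neither. Treatment, well, mouse and sex cannot be told apart here.

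**Figure D1:**
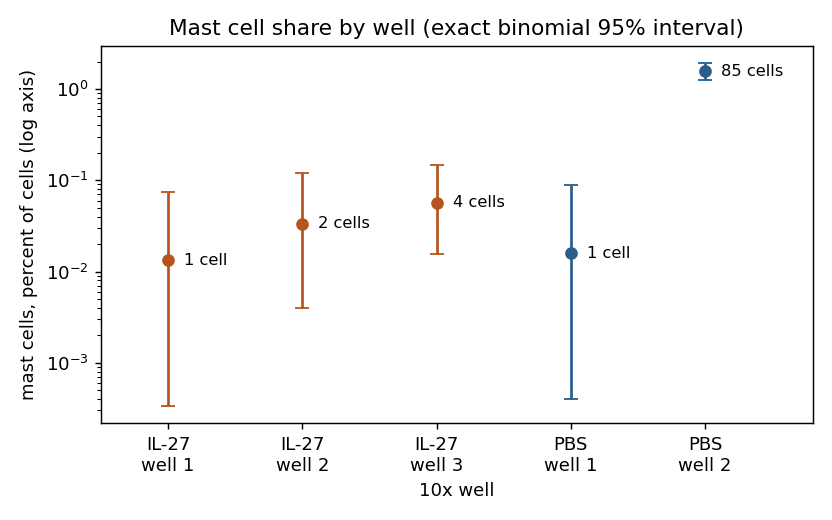
Mast cells as a percent of all cells in each 10x well on a log axis, with exact binomial 95% intervals and the number of mast cells beside each point (IL-27 in orange, PBS in blue). PBS well 2 stands at 1.56% and the other 4 wells lie between 0.0132% and 0.0570%.

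The mast cells of PBS well 2 were small libraries. They held a median of 1619 UMIs (lowest 505, highest 15869) and 732 genes, against 3161.5 UMIs and 1370 genes in the other cells of the well. Their median mitochondrial share was 4.63%, against 3.51%. A depth under 1000 UMIs was found in 29 of the 85. Because cells this shallow can miss a gene they express, shares of cells with a UMI are also given after thinning each cell to 1000 UMIs, which keeps 56 cells.

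The label was checked on mast cell genes that the rule did not use. The IgE receptor chain Fcer1a was found in 72 of the 85 cells of PBS well 2, or 84.7% (75.3% to 91.6%), and the stem cell factor receptor Kit in 58.8% (47.6% to 69.4%). Gata2, a transcription factor of the mast cell and basophil lineages, was found in 58.8% (47.6% to 69.4%), the IL-33 receptor Il1rl1 in 55.3% (44.1% to 66.1%) and the receptor beta chain Ms4a2 in 49.4% (38.4% to 60.5%). The other genes set for this check were found in fewer cells. Mcpt4 was found in 35.3% (25.2% to 46.4%), Tpsb2 in 31.8% (22.1% to 42.8%) and the histamine enzyme gene Hdc in 7.06% (2.63% to 14.7%). In 3110 B cells of the same well, which should lack these genes and had a median of 3128.5 UMIs, the shares were 0.289% for Fcer1a, 0.547% for Kit, 0.322% for Gata2, 0.289% for Il1rl1 and 0.129% for Ms4a2. For Mcpt4, Tpsb2 and Hdc they were 0.322%, 0.868% and 0.354%. Kit was less specific, with a UMI in 6.94% of 793 cells of the T cell gate. The abundant Mcpt1 and Mcpt2 were also found there, in 9.45% and 7.68% of B cells. Among the 24 mast cells with at least 3000 UMIs, Gata2 was found in 24, Fcer1a and Kit in 21 each, Il1rl1 in 20 and Ms4a2 in 17. Mcpt4 was found in 7 of these 24, Hdc in 5 and Tpsb2 in 3.

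**Figure D2:**
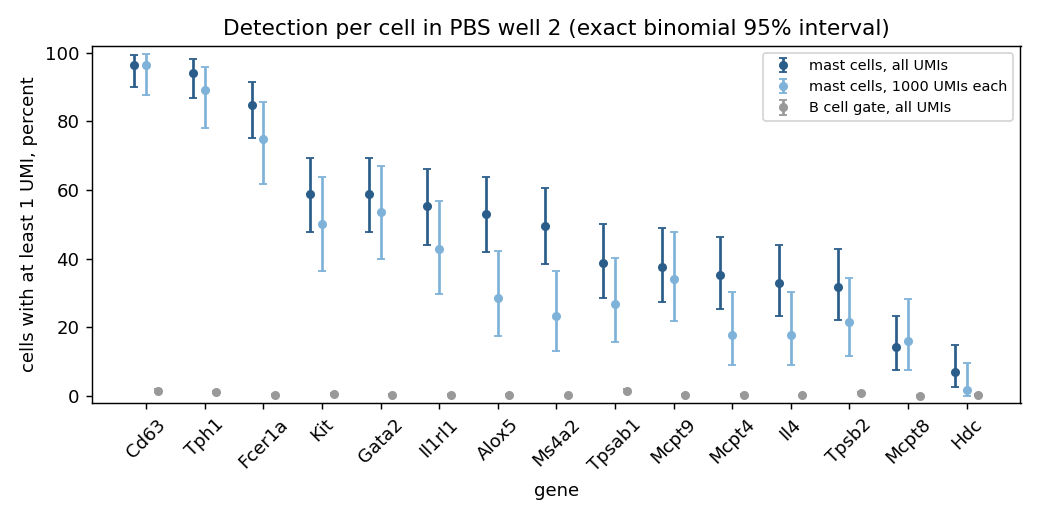
Percent of cells of PBS well 2 with at least 1 UMI of each gene, for mast cells at full depth, mast cells thinned to 1000 UMIs each and the B cell gate at full depth, with exact binomial 95% intervals. Cd63, Tph1 and Fcer1a were found in most mast cells, Mcpt4, Mcpt9, Tpsb2 and Tpsab1 in fewer, and each of the genes drawn in under 2% of B cells.

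The edge of the rule held a sizeable number of cells. Just inside it, 3 cells had 3 to 9 protease UMIs. One, in IL-27 well 2, had 15334 UMIs, 3 of Cpa3 and 0 of Mcpt1, Mcpt2 and Cma1, and the others, in PBS well 2, had 7 and 8 protease UMIs at depths of 1098 and 843 UMIs. Just outside, 3 cells had Cpa3 but only 1 protease UMI each. Another 43 cells failed on Cpa3 alone. Of these, 23 had at least 10 protease UMIs, 21 of them in PBS well 2. Their summed level of Tph1 was 3497 CPM (UMIs scaled to 1000000 per pool of cells), against 3176 CPM in the 90 mast cells with at least 10 protease UMIs, and that of Cd63 3135 against 4729 CPM, at a median depth of 825 UMIs. Fcer1a stood at 1166 against 1528, Kit at 522 against 849 and Gata2 at 281 against 854 CPM. A further 19 cells met every limit but the one on Cd79a and Cd3e, and 18 of them were in PBS well 2. These cells count as other cells below, which raises the level of mast cell genes on that side.

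Levels were compared between the 86 PBS mast cells (223570 UMIs) and the 11707 other cells of the same library. For each gene UMIs were summed per side and given in CPM over all genes, which with UMIs needs no scaling by gene length. The log2 ratio used a pseudocount of 1 CPM. A gene entered with at least 20 UMIs over both sides and at least 10 CPM on the higher side, and was called at 4-fold. Of 8763 genes, 533 (6.08%) were at least 4-fold higher in mast cells and 1032 (11.8%) at least 4-fold lower. Of the lower genes 609 had 0 mast cell UMIs, and 508 of these were under 4-fold once set at 3 UMIs over the pool (13.4 CPM), which leaves 524. The median gene had a log2 ratio of -0.19, against which a ratio can be read. With the 4 proteases of the rule left out of the total it was 0.05. A gene that is low in other cells enters only where mast cells express it, so list counts are descriptions.

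The 4 proteases that chose the cells are described first. Mcpt1 stood at 66699.5 CPM (exact Poisson 95% interval 65633 to 67779) and Mcpt2 at 43977 CPM (43112 to 44855), and the 4 proteases of the rule made up a median of 9.98% of a cell's UMIs in PBS well 2, with a span from 0.124% to 27.6%. Cma1 followed with 7309 CPM and the carboxypeptidase Cpa3 with 1950.2 CPM. Per cell, Mcpt1 had a lowest count of 0, a median of 90 and a highest of 2345 UMIs, Mcpt2 0, 54 and 1754, Cma1 0, 12 and 241, and Cpa3 1, 2 and 44. Cpa3 was thus the shallowest of the 4, and the rule asks for it. In the 77 cells with at least 20 UMIs of Mcpt1 and Mcpt2 together and some Mcpt2, Mcpt1 exceeded Mcpt2 in 64, with a median ratio of 1.51 and a span from 0.0299 to 6. Across the 85 cells, which share a library, Spearman's rho of the UMI shares was 0.76 for Mcpt1 with Mcpt2, 0.35 for Mcpt1 with Cma1 and 0.15 for Mcpt1 with Cpa3. The correlations are a description, and the counts of Cpa3 are low.

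Most other proteases were high in some mast cells and missing from the rest. Of the 8 listed proteases outside the rule, 7 entered the comparison and 7 were at least 4-fold higher in mast cells, with a median log2 ratio of 8.19. Mcpt4, a chymase of the connective tissue type, stood at 1302 CPM (1156 to 1460) against 1.17 CPM in other cells, yet its UMIs came from 30 of the 86 cells. Mcpt9 stood at 1418 CPM in 33 cells, Tpsab1 at 2599 CPM in 33 cells, Tpsb2 at 944 CPM in 27 cells and Cma2 at 461 CPM in 15 cells. A single cell gave 39.2% of the Tpsab1 UMIs and another 32.0% of the Cma2 UMIs. Cathepsin G, Ctsg, had 19 UMIs in 6 cells, and granzyme B, Gzmb, stood at 1185 CPM in 33 cells, with 28.7 CPM in other cells. The last, Tpsg1, had 1 UMI and did not enter.

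The deepest cells were patchy too. Of the 24 cells with at least 3000 UMIs, 17 had no Mcpt4, 16 no Mcpt9, 18 no Tpsab1, 21 no Tpsb2 and 18 no Cma2, while 22 had Mcpt1. The cells that had a gene could have a lot of it. Mcpt4 reached 72 UMIs in a cell of 6758 UMIs and 0 in the 4 deepest cells of PBS well 2. Tpsab1 reached 228 UMIs in the deepest cell, which had 0 of Mcpt4 and Mcpt9. The 2 tryptases went together in 24 of the 27 cells with Tpsb2, out of 33 with Tpsab1. Mcpt4 and Mcpt9 were found together in 9 cells, of 30 and 32 with each, and Mcpt4 and Tpsb2 in 10. Of 15 cells with Cma2, 9 also had Mcpt9. Transcripts of these genes are alike, with Mcpt1 82.2% identical to Mcpt2, 85.6% to Mcpt4 and 82.8% to Mcpt9 over the aligned bases, and reads that fit several genes may have been dropped or moved between them.

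**Figure D3:**
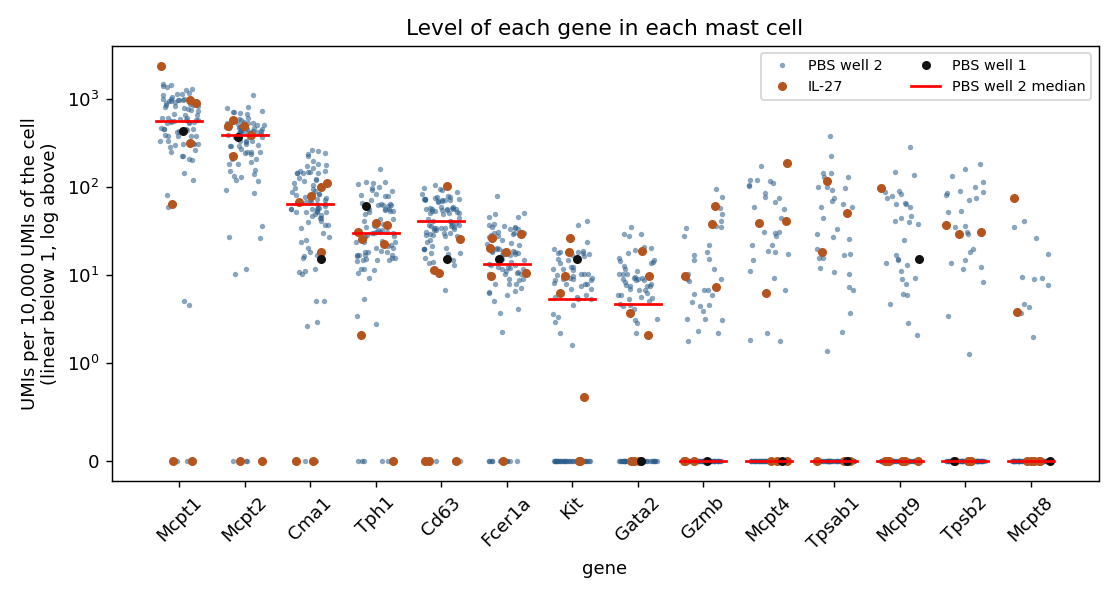
UMIs of 14 genes per 10000 UMIs in each mast cell (y axis linear below 1 and log above), with PBS well 2 in blue, the single cell of PBS well 1 in black, the 7 IL-27 cells in orange and the PBS well 2 median as a red line. Mcpt1 and Mcpt2 fill a high band with few cells at 0, and the genes from Gzmb to Mcpt8 have a median of 0 with some cells at high levels.

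Most of these genes lie in 1 cluster on chromosome 14 (GRCm38, GENCODE M21), which runs from Cma1 at 55941451 to 55944675 to Gzmb at 56258838 to 56262260. In chromosome order it holds Cma1, Cma2, Mcpt1, Mcpt9, Mcpt2, Mcpt4, Mcpt8 and Ctsg, followed by the granzymes. The CPM of mast cells in that order were 7309, 461, 66699.5, 1418, 43977, 1302, 349 and 85.0. Gzme, Gzmg, Gzmn, Gzmf and Gzmc had 0 UMIs in the PBS mast cells, Gzmd had 3 in 1 cell, and Gzmb at the far end had 1185 CPM. From Cma1 to Mcpt4 higher and lower genes alternate, and the genes at or near 0 lie between Ctsg and Gzmb.

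**Figure D4:**
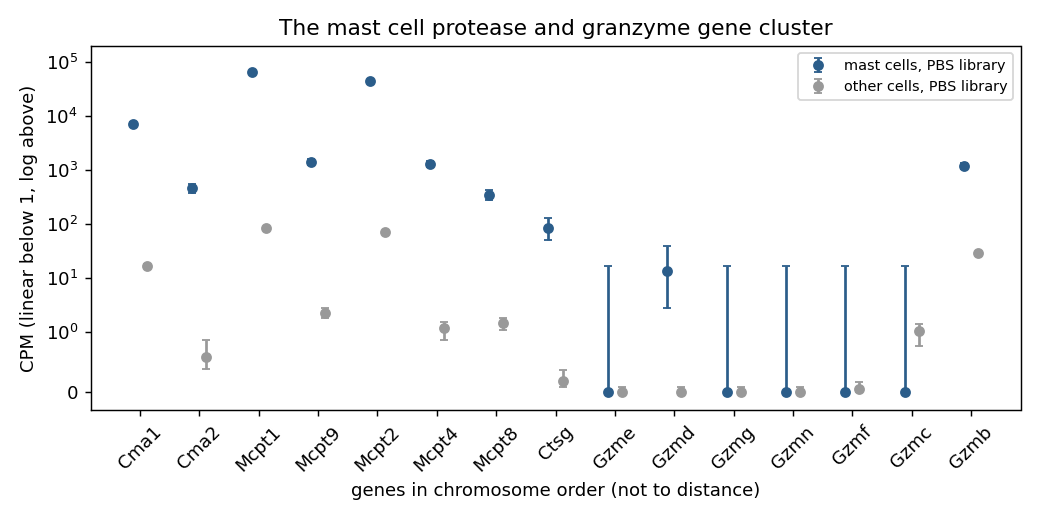
CPM of the 15 genes of the chromosome 14 cluster in mast cells and in other cells of the PBS library, in chromosome order and not to distance, with exact Poisson 95% intervals (y axis linear below 1 and log above). Mcpt1 and Mcpt2 are highest, and the 6 genes from Gzme to Gzmc lie at or near 0 in mast cells before Gzmb at 1185 CPM.

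The bases before the starts of Mcpt1 and Mcpt4 are shown because both genes lie in the same cluster, with like promoters and unlike spread. Mcpt9 and Mcpt2 lie between them. Mcpt1 was found in 83 and Mcpt4 in 30 of the 86 PBS mast cells. Mcpt1 is a gene of the rule and stood at 66699.5 CPM against 1302 CPM for Mcpt4. Both points favour its detection, so the difference in spread is a description. Each line gives the 250 bases before the RefSeq start site (GRCm38.p6), for Mcpt1 chr14:56017714-56017963, plus strand, and for Mcpt4 chr14:56062311-56062560, minus strand. Capitals mark the GATA words AGATAA or TGATAA or AGATAG or TGATAG on either strand and the word TATAAA on the gene's strand.
Mcpt1: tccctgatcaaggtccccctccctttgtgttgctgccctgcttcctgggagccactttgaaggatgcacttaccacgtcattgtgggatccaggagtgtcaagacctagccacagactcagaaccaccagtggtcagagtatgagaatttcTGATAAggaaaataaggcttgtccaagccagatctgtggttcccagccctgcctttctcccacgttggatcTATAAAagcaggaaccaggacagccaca
Mcpt4: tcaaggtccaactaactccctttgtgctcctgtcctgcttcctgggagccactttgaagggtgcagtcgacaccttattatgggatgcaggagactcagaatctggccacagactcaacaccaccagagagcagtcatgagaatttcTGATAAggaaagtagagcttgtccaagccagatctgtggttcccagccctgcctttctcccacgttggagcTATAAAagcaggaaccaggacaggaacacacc
Over 242 aligned bases the windows were 86.4% identical. Both hold TGATAA, at -99 in Mcpt1 and -103 in Mcpt4, and TATAAA, at -28 and -32, counted from the start site. A GATA word of these 4 occurs in 26.54% of the 32851 promoters in the table and TATAAA in 7.59%, over windows of the same length. The match of letters is a description and says nothing of binding.

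The high-affinity IgE receptor was present with all of its chains. Fcer1a, the IgE-binding chain, stood at 1503 CPM (1346 to 1672) against 2.74 CPM in other cells, with a lowest count of 0, a median of 2 and a highest of 30 UMIs per cell of PBS well 2. Ms4a2, the beta chain, stood at 349 against 1.15 CPM. Fcer1g, the signalling chain that other Fc receptors share, stood at 2643 against 177 CPM, and reached 2592 CPM in the 72 cells of the PBS macrophage gate. Downstream, the adaptor Lat2 stood at 622 against 138 CPM, and was the fourth of 13 listed genes past 4-fold, with none 4-fold lower. Lat stood at 564 against 253 CPM and the phosphatase Inpp5d, a brake on this receptor, at 268 against 118 CPM. The kinases Lyn (139 against 179 CPM) and Fyn (53.7 against 78.2 CPM) had ratio intervals that include 1, and Syk was at 62.6 against 142 CPM (ratio 0.442, 0.241 to 0.741).

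Of 14 listed growth and alarmin receptors 13 entered and 6 were at least 4-fold higher. One, Il18r1, passed 4-fold lower at 0 UMIs against 22.1 CPM, which at 3 UMIs is at least 1.64-fold lower. Kit stood at 836 CPM (721 to 965) against 8.36 CPM, and Il1rl1, the ST2 chain for IL-33, at 488 against 4.19 CPM. Csf2rb and Csf2rb2, beta chains of the receptor family for IL-3, IL-5 and GM-CSF, stood at 595 and 658 CPM against 18.7 and 9.83 CPM. The IL-3 alpha chain Il3ra was at 53.7 against 10.8 CPM. Tgfbr1, a receptor for TGF-beta, which drives Mcpt1 expression in cultured mast cells, stood at 233 against 40.9 CPM, while its partner Tgfbr2 was at 134 against 217 CPM. Il9r had 6 UMIs in 3 cells. Il1rap, the partner of ST2, had 0 UMIs, where other cells stood at 5.15 CPM, under the level of 3 UMIs.

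Among transcription factors, Gata2 was the highest at 863 CPM (746 to 994) against 2.25 CPM, with counts of 0 to 22 and a median of 1 UMI per cell of PBS well 2. Tal1, a haematopoietic factor that works with GATA proteins, stood at 143 against 0.351 CPM. Mitf, the factor that acts with Kit in mast cells, stood at 85.0 against 4.66 CPM and Gata1 at 40.3 against 1.24 CPM. Bhlhe40 and Zeb2 stood at 376 and 277 CPM against 42.2 and 34.3 CPM. Of 12 listed factors, 10 entered and 6 were at least 4-fold higher. Runx1, Spi1, Stat5a and Stat5b, which lymphocytes or myeloid cells share, stood at 1.86, 1.08, 2.20 and 1.34 times the level of other cells, and for Spi1 and Stat5b the interval includes 1. Cebpa had 0 UMIs.

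Promoter windows of 20 chosen genes, which are not the 20 with the highest ratios, were searched for the same words. The reason was that Gata2 was the highest of the listed factors. Of the 20 genes, 16 had an entry, with 20 start sites. A GATA word was found in 10 of these 20 windows, from 9 genes, and in 26.54% of all promoters of the table. Those of Cpa3 (chr3:20242182-20242431, minus strand), Fcer1a (chr1:173227230-173227479, minus strand) and Ms4a2 (chr19:11623720-11623969, minus strand) are shown as the granule and IgE receptor genes that hold AGATAA or its reverse complement, with capitals as above.
Cpa3: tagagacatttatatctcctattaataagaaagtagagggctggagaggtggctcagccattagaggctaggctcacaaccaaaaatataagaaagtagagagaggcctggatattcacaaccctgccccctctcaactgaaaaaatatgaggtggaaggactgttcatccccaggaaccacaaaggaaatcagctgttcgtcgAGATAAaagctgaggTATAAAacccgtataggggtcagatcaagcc
Fcer1a: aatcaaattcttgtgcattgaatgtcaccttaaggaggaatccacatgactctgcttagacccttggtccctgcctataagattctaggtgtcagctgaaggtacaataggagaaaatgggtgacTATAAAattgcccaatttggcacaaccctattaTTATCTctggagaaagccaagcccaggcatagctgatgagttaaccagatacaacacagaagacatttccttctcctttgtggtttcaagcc
Ms4a2: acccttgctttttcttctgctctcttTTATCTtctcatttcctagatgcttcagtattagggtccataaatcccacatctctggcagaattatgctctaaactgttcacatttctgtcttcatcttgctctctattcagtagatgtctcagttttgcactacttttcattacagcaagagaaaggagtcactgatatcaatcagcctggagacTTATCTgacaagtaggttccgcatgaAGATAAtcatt
The word lies at -46 in Cpa3, at -92 in Fcer1a, and at -224, -37 and -11 in Ms4a2. AGATAA on either strand occurs in 9.99% of all promoters of the table. No GATA word lies in the windows of Kit, Gata2, Mcpt8, Mcpt9, Gzmb, Ctsg or Cd63, which says only that these letters are not there.

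Genes of mediator synthesis were led by those for serotonin and leukotrienes, while the histamine enzyme was found in few cells. Tph1, the first enzyme of serotonin synthesis outside neurons, stood at 3243 CPM (3011 to 3488) against 6.91 CPM and was found in 80 of the 85 cells of PBS well 2, or 94.1%, with a median of 5 and a highest of 87 UMIs. Slc18a2, which loads amines into granules, stood at 201 against 0.890 CPM, and Ddc, the next serotonin enzyme, at 31.3 CPM with 7 UMIs. Hdc, which makes histamine, had 22 UMIs in 6 cells, or 98.4 CPM, and 1 cell gave 36.4% of them. In the thinned cells Hdc was found in 1.79% against 89.3% for Tph1. Alox5 and its activator Alox5ap stood at 523 and 2308 CPM against 2.13 and 78.9 CPM, Hpgds, a prostaglandin D2 synthase, at 192 against 3.68 CPM, and Ltc4s, the leukotriene C4 synthase, at 26.8 CPM with 6 UMIs. Cyclooxygenase genes were scarce, with 2 UMIs of Ptgs1 and 0 of Ptgs2. Of 13 listed genes, 9 entered and 8 were at least 4-fold higher.

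Granule genes were led by Cd63, a granule membrane protein that reaches the surface on degranulation. Cd63 stood at 4880 CPM (4595 to 5178) against 17.8 CPM, was found in 82 of 85 cells and ranged from 0 to 139 UMIs with a median of 8. Rab27b stood at 264 against 3.09 CPM, while its relative Rab27a had 3 UMIs, and the syntaxin Stx3 stood at 197 against 7.28 CPM. Srgn, the core protein of serglycin proteoglycan, was high on both sides at 2804 against 707 CPM, and Ndst2, which sulfates its heparin chains, stood at 112 against 15.4 CPM. Of 11 listed genes 4 were at least 4-fold higher. Lamp1 and Stxbp2 had ratio intervals that include 1.

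Some cytokine genes were spread over many cells and others were supplied by a few. Of 20 listed, 10 entered, 6 were at least 4-fold higher and 1, Tnf, lower. Ccl2, a monocyte attractant, stood at 376 CPM in 31 cells with at most 11.9% from any one cell, Il4 at 174 CPM in 28 cells and Il6 at 116 CPM in 18 cells, against 2.36, 2.29 and 0.421 CPM in other cells. Il13 stood at 362 CPM but 72.8% of its 81 UMIs came from 1 cell. Ccl4 stood at 2643 against 212 CPM, and 2 cells of PBS well 2 gave 353 and 229 of its 591 UMIs. Those 2 cells, of 6239 and 4381 UMIs, also held 17 and 36 UMIs of Ccl3, 7 and 59 of Il13, and 26 and 0 of Ccl1, beside 610 and 288 of Mcpt1. Without them Ccl4 had a log2 ratio of -2.30 in place of 3.64, lower than in other cells. Il5, Il9, Il10, Csf2 and Areg had 0 UMIs and Tnf had 2. For scale, 36 cells of the PBS type 2 innate lymphoid cell gate stood at 452 CPM of Il13 and 232 CPM of Il4.

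Of the inhibitory receptors, Cd200r3 stood at 255 against 1.22 CPM and Lilrb4a at 304 against 8.15 CPM. Cd300a, Milr1 and Cd200r4 were also past 4-fold, making 5 of the 8 that entered of 10 listed, and Fcgr2b was at 40.3 against 85.3 CPM. For adhesion and homing, Itgae, the alpha E chain that binds E-cadherin of epithelium, stood at 412 against 26.5 CPM, while its beta 7 partner Itgb7 was at 152 against 168 CPM. Itga2b and the fractalkine receptor Cx3cr1 stood at 188 and 268 CPM against 0.819 and 12.0 CPM, and Itgb2, the common chain of leukocyte integrins, was at 17.9 against 139 CPM. Of 12 listed, 10 entered, 4 were past 4-fold higher and 1 lower. The fourth of them, Cd9, drew 64.3% of its 28 UMIs from 1 cell, and had a log2 ratio of -0.04 without the 2 cells rich in Ccl4.

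The IL-27 receptor was scarce in mast cells. Il27ra had 2 UMIs in the 86 PBS mast cells, or 8.95 CPM (1.08 to 32.3), against 89.7 CPM in other cells, a ratio of 0.0998 (0.0121 to 0.361). Il6st (gp130), the partner chain of the IL-27 receptor, had 0 UMIs against 44.8 CPM, at least 3.34-fold lower when set at 3 UMIs over the pool. The 7 IL-27 mast cells had 0 UMIs of either. Of the signalling genes, Stat3 (134 against 111 CPM), Jak1 (277 against 271 CPM) and Jak2 (35.8 against 30.9 CPM) had ratio intervals that include 1. Of the 10 listed genes that entered, 0 were past 4-fold higher and 3 lower, or 2 with genes at 0 set at 3 UMIs. Over all 8763 genes 1032 (11.8%) were past 4-fold lower, or 524 with zeros set so. With 10 genes the count is a description.

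Several interferon response genes were lower than in the other cells, and others were not called. Of 20 listed genes 15 entered, 7 passed 4-fold lower and 1, Rsad2 with 3 UMIs in 1 cell, higher. With genes at 0 UMIs set at 3 UMIs, 4 of the 7 stayed past 4-fold. Over all 8763 genes 1032 (11.8%) passed 4-fold lower, or 524 with zeros set so. Stat2, Usp18 and Gbp2 had ratio intervals that include 1. The list's median log2 ratio was -1.73, or -1.22 with genes at 0 UMIs set at their bound, against -0.19 over all genes. Ifi27l2a stood at 8.95 against 1044 CPM, Irf7 at 13.4 against 89.8 CPM and Isg15 at 13.4 against 59.4 CPM, and Zbp1 had 0 UMIs against 46.7 CPM, at least 3.48-fold lower. Of the other cells, 6331 lay in the B cell gate and 2363 in the T cell gate.

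The median log2 ratio of each list covers the genes that entered, and for genes low in other cells the entry limit itself sets it high. The cytokine median, for one, leaves out 9 of 20 genes that had 0 UMIs. The median was 4.85 for mediator synthesis, 4.20 for cytokines, 3.05 for transcription factors, 2.23 for inhibitory receptors and 1.78 for growth receptors. It was 1.66 for stress genes, 1.35 for granule genes, 1.15 for IgE receptor signalling and 0.61 for adhesion. Below the median of all genes were IL-27 signalling at -1.10 and the cell cycle at -2.65, or -0.36 with genes at 0 UMIs set at their bound. The counts of called genes in each list stand beside shares over all genes of 6.08% higher and 11.8% lower.

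**Figure D5:**
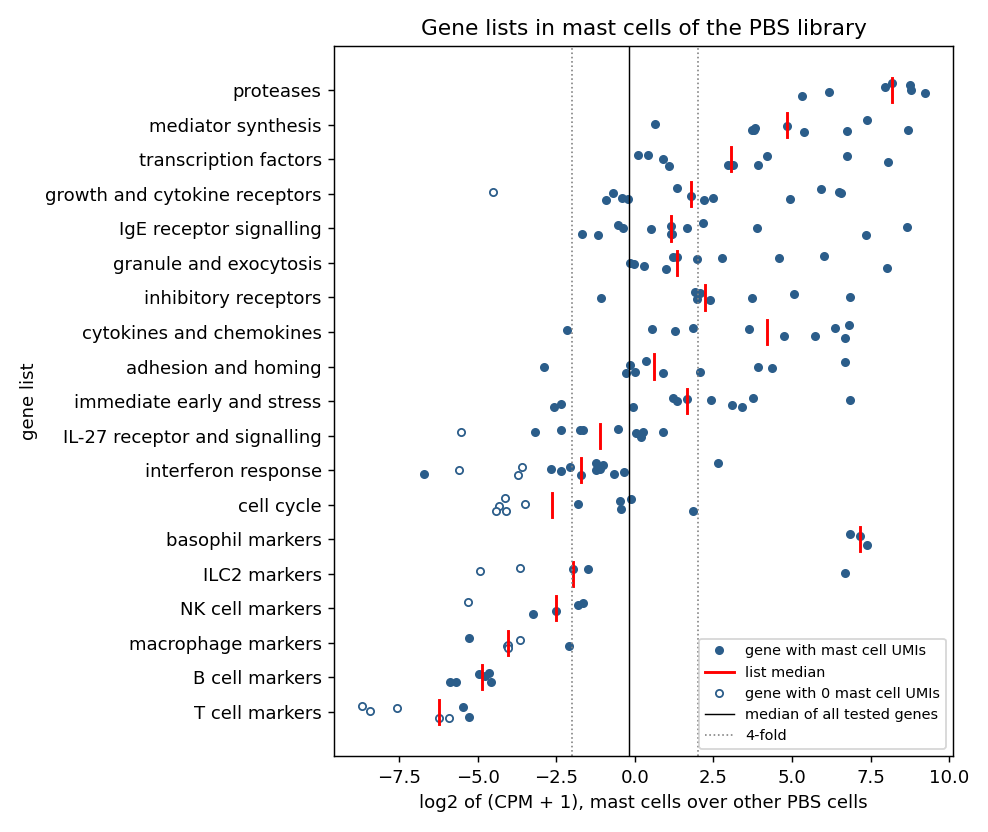
Log2 ratio of CPM (pseudocount 1 CPM) in mast cells over other cells of the PBS library for the genes of 19 lists that entered the comparison, without the 6 genes of the rule, with open points for genes at 0 mast cell UMIs, list medians in red, the median of all genes (-0.19) as a black line and 4-fold as dotted lines. Proteases, mediator enzymes and basophil markers lie to the right, and interferon, cell cycle and lymphocyte or macrophage genes to the left. With genes at 0 UMIs set at their bound, the macrophage median was -0.21 in place of -4.03.

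Markers of other cell types were summed over the mast cells. The B and T cell counts were largely set by the rule, which left out cells with Cd79a or Cd3e. Eosinophil and neutrophil lists had 0 UMIs over the 86 PBS mast cells, the macrophage list 4, the T cell list 3, the NK cell list 20, the dendritic cell list 17, the B cell list 25, the stromal list 23, all of them Pecam1, and the gastric epithelial list 25. Gkn1 of the surface mucous cell gave 10 of the last in 7 cells. C1qa, C1qb, C1qc, Adgre1 and Csf1r were at 0, as were Trac, Cd4, Cd8a and Gata3. The part of these stray UMIs in any ratio above was not tested. Basophil markers were split, with Mcpt8 at 349, Cyp11a1 at 528 and Cd200r3 at 255 CPM, and Prss34 and Itga2 at 0 UMIs. Prss34 also had 0 UMIs in the other cells of the PBS library.

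Some division genes had no UMI in the PBS mast cells and others were found. Mki67, Top2a, Birc5 and Ube2c had 0 UMIs, against 16.1 to 20.6 CPM in other cells, where 3 UMIs would be 13.4 CPM. Pcna was at 44.7 against 48.7 CPM and Tyms at 35.8 against 9.18 CPM. Of 12 listed genes 10 entered, and 5 passed 4-fold lower, all at 0 UMIs and 0 of them past it once set at 3 UMIs. Hmgb2, which resting cells also express, had 35 UMIs in 25 cells. Immediate early and stress genes differed in both directions. Ier3, an early response gene, stood at 1664 against 13.6 CPM in 60 cells, Jun at 1029 against 120 CPM, Fosb at 170 against 11.5 CPM and Fos at 309 against 56.8 CPM, while Zfp36 and Dusp1 were at 98.4 and 4.47 against 508 and 31.6 CPM. Of 13 listed genes 11 entered, 5 were past 4-fold higher and 2 lower. Tissue handling touches the same genes, and its part was not tested.

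Ranked by ratio among genes with at least 100 CPM and 50 UMIs in mast cells, and without the genes of the rule, the list ran Mcpt4, Tpsab1, Mcpt9, Tph1, Fcer1a, Ifitm1, Cma2, Gata2, Cd63 and Tpsb2. Ifitm1, an interferon-inducible membrane protein, stood at 4182 CPM (3918 to 4459) against 12.3 CPM in 73 cells. Car8, a carbonic anhydrase relative without catalytic activity, stood at 532 against 1.43 CPM in 45 cells, and Cd34, a progenitor marker also kept on mast cells, at 349 against 0.819 CPM in 38. Cyp11a1, the first enzyme of steroid synthesis, stood at 528 against 2.15 CPM in 42 cells. Thsd4, Creb3l1 and Oaf stood at 309, 268 and 282 CPM in 33, 33 and 35 cells. At most 11.1% of the UMIs of each of these 3 genes came from any one cell. The lowest ratios belonged to lymphocyte and myeloid genes. Cd3d and Lck had 0 UMIs, at least 25.7-fold and 23.8-fold lower, and Ebf1, Mzb1, Tnfrsf13c, H2-DMb2, Gimap6 and Lyz2 had 2 to 5 UMIs each.

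Several cells stood apart within the gate, and were picked out after their values were seen. In one kind, 2 cells of PBS well 2 and 1 of IL-27 well 2 had 0 UMIs of both Mcpt1 and Mcpt2 at depths of 11254, 5097 and 4774 UMIs, with Cpa3 at 11, 19 and 17. Gzmb stood at 41, 25 and 29 UMIs, a level also reached by cells with Mcpt1 (51 and 48 UMIs in the highest). They held 54, 7 and 8 UMIs of Lmo4, a LIM-domain transcription cofactor, whereas the other 83 cells of PBS well 2 had at most 2 of Lmo4. Gata2 stood at 22, 18 and 1 UMIs, Kit at 6, 9 and 3, Cma1 at 3, 75 and 48, and Tph1 at 0, 0 and 1 in them. Elsewhere Mcpt8, the basophil chymase, was found in 12 cells of PBS well 2, led by cells with 20, 18, 18, 7 and 6 UMIs, whose Mcpt1 counts were 116, 745, 2, 873 and 610. The IL-27 cell without Mcpt1 had 36 of Mcpt8. In 3110 B cells of PBS well 2 Mcpt8 had 0 UMIs, with an exact binomial upper limit of 0.119%. The last, the IL-27 cell of 15334 UMIs had none of Mcpt1, Mcpt2, Cma1, Fcer1a, Fcer1g, Gata2, Tph1 and Cd63. It held 3 UMIs of Cpa3, 7 of Cd34, 42 of Plac8, 7 of Ighm, 16 of Stmn1, 4 of Top2a and 2 of Mki67. No other cell of the gate had Top2a. It met the rule through Cpa3 alone, and these values go against the name mast cell for it. With at least 10 protease UMIs the IL-27 library held 6 cells.

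IL-27 and PBS mast cells were set side by side, although 7 cells of 27982 UMIs leave little to compare. Genes needed at least 30 UMIs over both sides and 50 CPM on the higher side, and were called at 2-fold. Of 1087 genes, 67 (6.16%) were higher in the IL-27 cells and 242 (22.3%) lower. The PBS side held 223570 UMIs, so genes met the limit of 30 UMIs mostly through PBS, with few IL-27 UMIs near that limit. How far this sets the excess of lower genes was not tested, and the counts are descriptions. The cell of 15334 UMIs described last gave 54.8% of the IL-27 UMIs, and at least 50% of the IL-27 UMIs of 61 of the 67 higher genes. With at least 10 protease UMIs, which leaves that cell out, 94 of 1024 genes were higher and 224 lower. H2afy and Tuba1b (822 against 112 and 679 against 107 CPM) came from that cell alone, as did 42 of 43 UMIs of Plac8 and 19 of 21 of Hmgn2, and only Elf1 of the 5 highest was spread, over 4 cells. The 5 lowest, Car8, Cma2, Gzma, Il13 and Tubb2a, had 0 IL-27 UMIs and 75 to 119 PBS UMIs. At a floor of 3 UMIs over the pool of 7 cells, or 107 CPM, they were 4.96, 4.30, 3.42, 3.38 and 3.13-fold lower. The cell of 15334 UMIs gave 54.8% of that pool, and without it the floor would be higher and these folds smaller. As said above, 1 PBS cell gave 72.8% of Il13, and 52 of the 82 Gzma UMIs came from another. Of the 242 lower genes 40 had 0 IL-27 UMIs. In the other 6 IL-27 cells, Fcer1a was found in 6 and Tph1 in 6, with counts of 1 to 8 and 1 to 7 UMIs. Mcpt1 in the 7 cells was 96, 0, 0, 637, 17, 92 and 17 UMIs and Mcpt4 was 4, 0, 3, 51, 0, 4 and 0. The cell of PBS well 1 had 652 UMIs, with 28 of Mcpt1, 24 of Mcpt2, 4 of Tph1, 2 of Ms4a2 and 1 each of Kit and Fcer1a.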

How the data were processed

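Single-cell RNA was measured with 10x Genomics 5' v1.1 chemistry. The authors' tool was Cell Ranger 3.0.0 on mm10, per the submitters' processing notes, while 3.1.0 stands in the matrix headers. What was deposited is raw UMI counts, whole numbers for each pair of gene and barcode. The members, gene lists and named-gene rule were chosen with earlier results of these data known. Named genes were those of the lists, the 25 highest and 10 lowest ratios against other cells and the 5 highest and 5 lowest between treatments, without antigen receptor, sex-linked, mitochondrial, ribosomal, haemoglobin and unnamed genes and the genes of the rule. The 10 lowest needed at least 300 CPM in other cells.

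UMIs were summed per side and turned into CPM in Python 3.11.15 with numpy 2.4.6, scipy 1.17.1 and pandas 2.3.3, with exact Poisson, conditional (ratio) and Clopper-Pearson intervals. With 1 library per group no test was made. Scrublet ran in scanpy 1.11.5 per well. The intervals were run on simulated counts drawn from the Poisson model that they assume. That run does not cover spread between cells. The B cell gate asked for Cd79a and Ms4a1, the T cell gate for Cd3e, the type 2 innate lymphoid cell gate for Gata3 with Il1rl1 or Il17rb, and the macrophage gate for 3 UMIs of 6 macrophage genes, all without Cpa3 and without the markers of B or T cells that did not define the gate. Promoters came from RefSeq (GRCm38.p6) and gene positions from GENCODE M21, where 274 of 274 genes were found. PCR copies were collapsed by UMI. Some genes that the rule names are not reported here. Alternatives changed the limits of the rule, the scaling, the pseudocount, the filter and the wells used.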

Additional observations from a re-analysis of the deposited data

How the results depend on the processing

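No paired analysis was possible because each group has 1 library. The IL-27 share stayed inside its counting interval under every alternative run. The PBS share was 0.532% with at least 500 genes, 0.446% with at most 5% mitochondrial UMIs, 1.56% without PBS well 1 and 0.0158% without PBS well 2. Genes past 4-fold higher and lower numbered 254 and 388 of 8763 with a pseudocount of 10 CPM, and 948 and 3288 of 8660 in the IL-27 library. That library holds 7 mast cells, and the cell of 15334 UMIs, which lacked most mast cell genes, gave 54.8% of their UMIs. Without PBS well 2, where 1 cell is left, the counts were 244 and 7442 of 7799. With a mean over cells 1583 of 8867 genes were lower. Under all other alternatives run they stayed within 1.5 times 533 and 1032. Between treatments, genes past 2-fold higher numbered 101 of 1008 without IL-27 well 2 and 106 of 1054 without IL-27 well 3. Without PBS well 2, which leaves 1 PBS cell, 127 genes entered. Of these 19 were lower and 53 higher, so more were higher than lower, unlike in the main run. Thinned to 1000 UMIs, the shares were 75% for Fcer1a, 23.2% for Ms4a2, 42.9% for Il1rl1, 17.9% for Mcpt4, 21.4% for Tpsb2, 26.8% for Tpsab1, 1.79% for Hdc, 28.6% for Alox5 and 17.9% for Il4.

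Of 2012 single-gene values, 9 turned their sign in genes that passed the fold limit in the main run. Sign changes of genes under that limit were not counted. Without the 2 cells rich in Ccl4, a choice made after seeing the data, Ccl4 was at -2.30 and Cd9 at -0.042 on the log2 scale. In the IL-27 library Mki67 was at 1.56, Top2a at 2.18, Birc5 at 0.54, Nkg7 at 1.19 and Ccr9 at 4.51. All mast cell UMIs of Mki67, Top2a and Ccr9 there (2, 4 and 7) came from the cell of 15334 UMIs, which lacked most mast cell genes. With at least 10 protease UMIs, Hmgn2 was at -0.12 and Plac8 at -2.21 for IL-27 over PBS. H2afy and Tuba1b then had 0 IL-27 UMIs and no ratio was formed. Values of single genes without PBS well 2 were not run, since 1 cell is left. The gates without Cpa3 were also chosen after seeing the data, and gave shares of 0.0340% and 0.899%. Depth limits every statement that a gene was not found.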

Other observations

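Cma1 was not a mast cell gene alone in these libraries. In 19 cells there were at least 3 UMIs of Cma1 and none of Mcpt1, Mcpt2 or Cpa3. They came from all 5 wells, at 3, 8 and 1 cells for IL-27 and 3 and 4 for PBS. Of the 19 cells, 18 had UMIs of Ncr1, the NKp46 receptor of natural killer cells, at 2576 CPM summed, and Nkg7, a cytotoxic granule gene, stood at 4393 CPM. Kit, Fcer1a, Tph1, Cd63 and Gata2 were at 0 UMIs in them. The highest Cma1 count among them was 7, where the median mast cell of PBS well 2 had 12. These cells were picked out after their values were seen.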
